A study of Mus musculus with 6 samples.

Results

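The genes described here encode the protein components of the cytoplasmic ribosome. They were taken as the protein-coding rows whose symbol is Rpl or Rps followed by a number and at most an added letter or l, together with Rplp0, Rplp1, Rplp2 and Rpsa, with Rps6k kinase genes and names in -ps or -rs left out. The rule gave 83 genes among 47205 rows, of which 22186 were protein coding. Of these, 52 belonged to the large subunit (Rpl) and 31 to the small subunit (Rps and Rpsa). RNA was sequenced from whole mouse ovaries at 9 days post partum, with 3 libraries of wild-type genotype (WT) and 3 of a conditional knockout (cKO) that removes SRSF1, a serine/arginine-rich splicing factor, from granulosa cells. The comparison asks how that loss alters gene expression in the ovary. The sources used here do not name the Cre driver or the strain. The labels do not say whether each library is a different animal, and p-values therefore measure only the spread between these libraries. The knockout was made in granulosa cells while the RNA came from the whole organ, so fewer cells of a type and less RNA per cell cannot be told apart.

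Each cytoplasmic ribosome carries a single copy of nearly every one of these proteins, arranged on ribosomal RNA in a small subunit that decodes the mRNA and a large subunit that forms the peptide bond. Their mRNAs are among the most abundant of most cells, are short, and begin with a 5′ terminal oligopyrimidine (TOP) tract through which mTOR signalling and the RNA-binding protein Larp1 adjust their translation. In mammals nearly every ribosomal protein comes from 1 functional gene with introns, accompanied by many processed copies without introns elsewhere in the genome, most of them annotated as pseudogenes. In the ovary, ribosomal protein mRNA comes from growing oocytes, granulosa cells, stroma and all other cells alike.

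The start regions of a few members are shown because the TOP tract is the sequence feature that these genes are known to share. The first 5 all hold a run of at least 8, longer than the median of 6.5 among members with a record, and Rpl26 (a run of 3) and Rpl10l are shown as members with short runs. Sequences are RefSeq promoter records on GRCm38.p6, 20 bases before and 20 bases after the annotated start, 5′ to 3′ on the gene's strand, with the longest run of C and T near the start in capitals.

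Rps6, chr4:86857348-86857387, minus strand: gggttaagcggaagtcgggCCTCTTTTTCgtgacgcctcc

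Rps27, chr3:90213629-90213668, minus strand: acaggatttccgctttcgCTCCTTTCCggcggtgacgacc

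Rpl28, chr7:4792945-4792984, plus strand: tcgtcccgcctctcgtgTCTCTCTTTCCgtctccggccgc

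Rpl35a, chr16:33056462-33056501, plus strand: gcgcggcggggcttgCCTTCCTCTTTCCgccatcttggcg

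Rps18, chr17:33955646-33955685, minus strand: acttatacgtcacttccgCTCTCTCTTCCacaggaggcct

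Rpl26, chr11:68901546-68901585, plus strand: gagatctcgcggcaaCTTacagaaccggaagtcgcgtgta

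Rpl10l, chr12:66284382-66284421, minus strand: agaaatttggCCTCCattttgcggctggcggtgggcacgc

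Of the 83 members, 62 matched a RefSeq promoter record by symbol. Between 10 bases before and 15 bases after the start, 23 of the 62 (37.1%) held a run of at least 8 C or T on the sense strand, against 11% of the 27025 genes in the same table. The letters CTTTCC, which are themselves part of such a run in Rps27, Rpl28 and Rpl35a, were found on the sense strand of 10 members (16.1%), against 1.24% of all genes. On the antisense strand they were found in 0 members, against 1.22% of all genes. These are matches to letters in windows of annotated starts. Rpl10l, a copy of Rpl10 without introns, had 5 bases in its longest run.

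Reads recovered from the deposited values came to 16.8, 18.2 and 18.5 M for the WT libraries and to 18.6, 18.6 and 18.7 M for the cKO libraries. Values are the FPKM that the authors deposited, which divide the fragments of a gene by its length and by a size factor of the library. Srsf1 itself stood at 39.9, 49.6 and 46.3 FPKM in WT and 20.3, 26.9 and 21.4 FPKM in cKO, so that every cKO library lay below every WT library, with a log2 fold change of -0.96 with an SE of 0.134 (limma adjusted p = 0.32). Of 12 granulosa markers, 2 had a higher mean in cKO, with a median log2 fold change of -0.40, and their summed level ran from 817 to 926 FPKM in WT and from 703 to 812 FPKM in cKO. The 14 oocyte markers had a median of -0.04, from 3563 to 3673 FPKM in WT and from 3359 to 3645 FPKM in cKO. All 10 macrophage and leukocyte markers had a higher mean in cKO, with a median of 1.21 and sums of 33.5 to 50.6 FPKM in WT and 72.7 to 182 FPKM in cKO. All 8 surface epithelium markers did so too, with a median of 0.66 and sums of 167 to 206 FPKM in WT and 237 to 334 FPKM in cKO. None of the markers in these 4 lists was at 0 in every library. None of them passed the limma threshold, against 0.00680% higher and 0.0136% lower among all genes tested. The part of these markers in the ribosomal protein values was not tested.

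The ribosomal protein genes together took 10.4%, 8.29% and 10.7% of all FPKM in the 3 WT libraries and 10.2%, 11% and 10.4% in the 3 cKO libraries. In recovered reads, which do not correct for their short length, WT libraries gave 3.11%, 2.39% and 3.25% and cKO libraries 3.11%, 3.52% and 3.08%. WT replicate 2 was thus the lowest library and cKO replicate 2 the highest, and the other 4 libraries lay between 10.2% and 10.7% of FPKM. Among all 83 genes, 69 had a mean of at least 100 FPKM in WT. The plot of FPKM by library shows the range among the tested genes, from a few FPKM for Rpl39l and Rpl10l to the highest values, those of Rplp1.

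**Figure D1:**
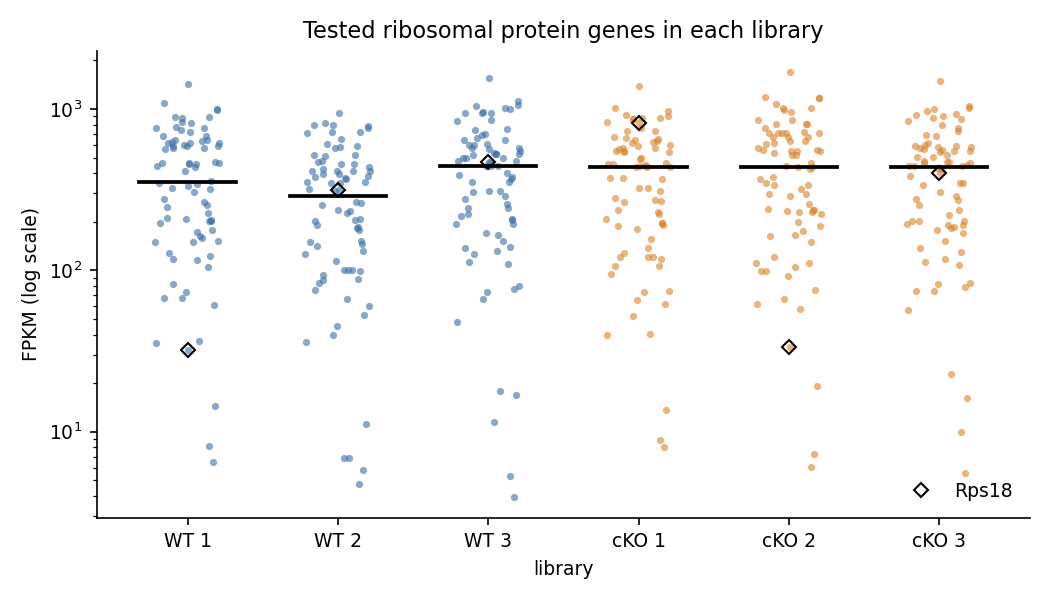
FPKM (log axis) of the 80 tested ribosomal protein genes in each library, WT in blue and cKO in orange, with a bar at their median and open diamonds for Rps18. The points of WT 2 sit lowest, and Rps18 falls to 32.2 FPKM in WT 1 and 33.4 FPKM in cKO 2 against 317 to 812 FPKM in the other 4 libraries.

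The acidic stalk proteins recruit elongation factors to the large subunit, and Rplp1 was the most abundant member, at 1435, 947 and 1556 FPKM in WT and 1380.2, 1694 and 1482 FPKM in cKO. The groups overlapped, with WT replicate 2 lowest of all 6 libraries and cKO replicate 2 highest. Its log2 fold change was 0.24 (SE 0.22, limma adjusted p = 0.862). Rplp0, which anchors the stalk, stood at 834, 720.4 and 940.4 FPKM in WT and 868, 1011 and 881 FPKM in cKO, and Rplp2, the partner of Rplp1, at 563, 378 and 499 FPKM in WT and 545, 610.3 and 501 FPKM in cKO. Both had the same lowest and the same highest library as Rplp1.

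Other members among the 10 with the highest mean in WT were Rpl23a, Rpl13, Rps26, Rpl7, Rpl10 and Rpl4, with means from 770.4 FPKM (Rpl4) to 961 FPKM (Rpl23a). Rpl23a, which lies at the exit of the peptide tunnel, stood at 980.3, 778 and 1125 FPKM in WT and 970.3, 1176 and 1008 FPKM in cKO. Rpl4, which lines that tunnel, had the smallest spread within groups of all tested members and stood at 760.1, 707 and 844 FPKM in WT and 826, 857 and 844 FPKM in cKO. The WT mean was 770.4 ± 69.4 FPKM and the cKO mean 842 ± 15.4 FPKM (SD, n = 3 each), with a log2 fold change of 0.13, an SE of 0.124 and a limma adjusted p = 0.863. For these genes together with Rplp1 and Rplp0 the log2 fold changes ran from 0.11 (Rpl7) to 0.24 (Rplp1), and the groups overlapped in every one of them.

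Several members are known for roles beyond the structure of the ribosome. Rps6, which is phosphorylated by the S6 kinases downstream of mTOR, stood at 435, 375 and 522 FPKM in WT and 442, 518 and 516 FPKM in cKO, a log2 fold change of 0.16 (SE 0.154). Rpl5, which with Rpl11 carries 5S rRNA and binds the p53 inhibitor Mdm2, stood at 349, 319.8 and 389 FPKM in WT and 373, 367 and 382 FPKM in cKO. Rpl11 stood at 205, 146 and 205 FPKM in WT and 196, 236 and 170.5 FPKM in cKO. The groups overlapped in each, and the log2 fold changes of Rpl5 and Rpl11 were 0.09 and 0.12. Rps19, in which mutations cause Diamond-Blackfan anaemia in humans, stood at 325, 254 and 353 FPKM in WT and 371, 379.7 and 336 FPKM in cKO, where only WT replicate 3 reached into the cKO range. Rpsa, the small subunit protein also known as the laminin receptor precursor, stood at 598, 569 and 695 FPKM in WT and 643, 714 and 681 FPKM in cKO, again with overlapping groups. The log2 fold changes of Rps19 and Rpsa were 0.23 and 0.13, with limma adjusted p = 0.821 and 0.865.

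No ribosomal protein gene passed the test between WT and cKO. Of the 83 members, 80 had a mean of at least 1 FPKM and were tested, and 0 of them were higher and 0 lower past an adjusted p of 0.05 by limma, against 0.00680% and 0.0136% of all 14714 genes tested. At an unadjusted p under 0.05, 3 members were higher and 0 lower, against 3.64% and 2.70% of all genes. By limma-voom on the recovered reads 5 members were higher and 0 lower at an unadjusted p under 0.05, against 6.16% of all genes in either direction, and 0 passed after adjustment (0.00% of all genes). In 0 of the 80 members did the cKO libraries all lie above or all below the WT libraries, against 6.37% and 5.89% of all genes.

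Although no single gene was called, the means leaned one way. The log2 fold change was above 0 in 76 of the 80 members (95%), against 50.0% of all genes tested. The median was 0.16 over the members and 0.00 over all genes, with 0.15 for the 49 tested large subunit genes and 0.16 for the 31 small subunit genes. The 4 members below 0 were Rpl34, Rps2, Rps27a and Rpl30, each of which belonged to the 12 with a wide spread within a group. Without WT replicate 2, 57 members were above 0 and the median was 0.03, and without cKO replicate 2, 72 were above 0 and the median was 0.12. After quantile normalization, 56 members were above 0 and the median was 0.05. With both of these libraries left out, an alternative chosen after seeing the data, 33 of 80 members were above 0 and the median was -0.02.

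The 5 members with the smallest p on the higher side were Rps27, Rpl26, Rps28, Rps12 and Rpl37. Rps28, a short protein near the mRNA exit of the small subunit, stood at 117, 66.7 and 133 FPKM in WT and 120.2, 199 and 189.9 FPKM in cKO. Only cKO replicate 1 fell within the WT range. Its log2 fold change was 0.71 (SE 0.297, limma adjusted p = 0.773). Rps12, another small subunit protein, stood at 201, 177 and 352 FPKM in WT and 311, 427 and 349.6 FPKM in cKO, where WT replicate 3 lay inside the cKO range. Its log2 fold change was 0.63 (SE 0.266). Rpl37, a zinc-finger protein of the large subunit, stood at 129, 83.2 and 112 FPKM in WT and 121, 164 and 138 FPKM in cKO, a log2 fold change of 0.39 (SE 0.185), with WT replicate 1 inside the cKO range. With the reads of copies added, the log2 fold change was 0.51 for Rps28, 0.47 for Rps12 and 0.38 for Rpl37. Copies held 21%, 40.1% and 22.2% of the reads of these 3 families. Rps27 and Rpl26 are described below with their copies.

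The members deviated together from library to library. Relative to its own mean over the 6 libraries on the log2 scale, the median member stood at 0.01, -0.36 and 0.10 in the 3 WT libraries and at 0.00, 0.25 and 0.05 in the 3 cKO libraries. WT replicate 2 was the lowest WT library in 73 of the 80 members (91.3%), against 33.5% of all genes tested. Among the cKO libraries, replicate 2 was the highest in 56 members (70%), against 37.5% of all genes. Over all genes tested the median deviation was at most 0.013 in size in every library. In a fit that weights libraries by their distance from the fitted group means, cKO replicate 2 had the lowest weight, 0.379, against 0.745 to 2.96 for the other 5.

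Other short genes deviated in the same libraries, as a comparison chosen after seeing the data showed. Among protein-coding genes outside the family with a mean of at least 10 FPKM and a length under 700 bases, 137 in all, the median deviation was -0.37 in WT replicate 2 and 0.30 in cKO replicate 2. In the 31 tested ribosomal protein genes of that length it was -0.45 and 0.29. The log2 fold change was above 0 in 92.0% of these 137 other genes, with a median of 0.21, beside 96.8% and 0.23 in the 31 members. In the other genes the deviations shrank with length, to -0.26 and 0.25 from 700 to 1000 bases (232 genes), -0.14 and 0.15 from 1000 to 2000 bases (1255 genes) and -0.03 and 0.02 from 2000 to 4000 bases (2314 genes). In the 2393 genes of 4000 bases or more the signs turned, to 0.09 in WT replicate 2 and -0.12 in cKO replicate 2, and the median log2 fold change was -0.05. Among members of longer deposited length, the 24 tested ones of 1000 to 2000 bases stood at -0.32 and 0.17, and the 5 of 2000 to 4000 bases at -0.33 and 0.26. These lengths are those of the deposited values, such as 3446 bases for Rps20 and 2748 for Rps27l. They were not checked against the length of the mRNA present, so these members may be long by annotation only. The part of gene length in the ribosomal protein values was not tested.

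**Figure D2:**
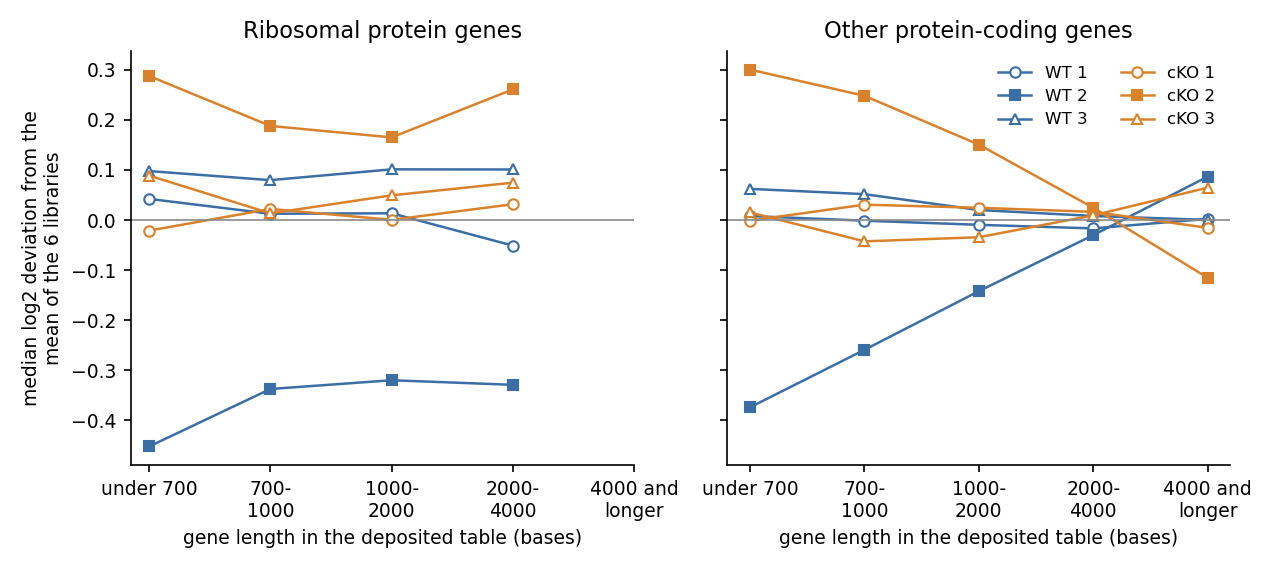
Median log2 deviation of each library from the mean of the 6 libraries, by gene length in bases, for the ribosomal protein genes (left, length classes with at least 5 tested members) and for other protein-coding genes of at least 10 FPKM (right), WT in blue and cKO in orange. WT 2 lies lowest and cKO 2 highest among short genes in both panels, at -0.37 and 0.30 for other genes under 700 bases, and the lines of the other genes cross near 2000 to 4000 bases.

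A minority of the members varied widely within a group. In 12 of the 78 members with a mean of at least 10 FPKM (15.4%), the highest library of a group held at least 2 times the value of the lowest, against 288 of 6680 genes of that level (4.31%). The pooled within-group SD of log2(FPKM + 1) had a median of 0.22 over these members and of 0.15 over all such genes. Rps18 had the widest spread of the family, at the 99.9th percentile of those genes, followed by Rpl35a and Rps27a, while Rpl4, Rpl5, Rpl22, Rpsa and Rpl10 had the narrowest. Rpl22, for example, stood at 104, 88.8 and 109.7 FPKM in WT and 107, 110.4 and 108 FPKM in cKO. Rps28 and Rps12 lay just under the ratio of 2, both at 1.99 in WT, and Rpl7a and Rpl30 just over it, at 2.02 in WT and 2.03 in cKO.

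**Figure D3:**
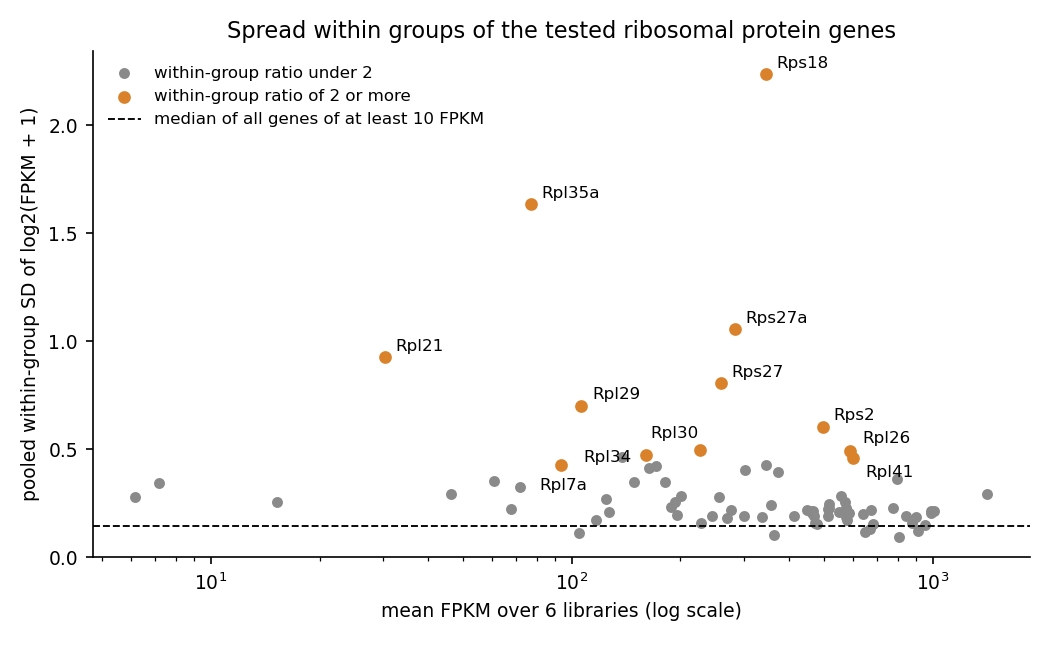
Pooled within-group SD of log2(FPKM + 1) against the mean FPKM over 6 libraries (log axis) for the 80 tested ribosomal protein genes, with those whose highest library is at least 2 times the lowest within WT or cKO in orange and named. Rps18 stands highest at 2.24, and the dashed line marks the median of all genes of at least 10 FPKM, 0.15.

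Rps18, a protein of the head of the small subunit (chr17:34170972-34174639, minus strand, GRCm39 as in the deposited table), had the widest swings. It stood at 32.2, 317 and 472 FPKM in WT and at 812, 33.4 and 401 FPKM in cKO. WT replicate 1 and cKO replicate 2 were low, far below the other libraries of their group, and the groups overlapped throughout. The WT mean was 274 ± 223 FPKM and the cKO mean 416 ± 389.8 FPKM (SD, n = 3 each), with a log2 fold change of 0.39, an SE of 1.38 and a limma adjusted p = 0.967. The direction depended on single libraries, with a log2 fold change of -0.79 without WT replicate 1, -0.54 without cKO replicate 1 and 1.74 without cKO replicate 2.

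The opposite swing was found in rows annotated as copies of Rps18. Rps18-ps4 (chr13:97887620-97897471, given as a long non-coding RNA in the table) stood at 223, 84.4 and 134 FPKM in WT and at 1.78, 291 and 128 FPKM in cKO, so that its 2 highest libraries were the 2 in which Rps18 was lowest, and its lowest was the one in which Rps18 was highest. A pair of unnamed rows described as the same protein were also lowest in cKO replicate 1. The first, on chromosome 13, stood at 105, 42.7 and 72.6 FPKM in WT and 19.8, 166 and 78.7 FPKM in cKO. The second, on chromosome 8, stood at 73.2, 29.8 and 38.1 FPKM in WT and 7.5, 47.4 and 14.2 FPKM in cKO. Copies held 95.3%, 44.4% and 45.7% of the reads of the Rps18 family in WT and 4.44%, 96.2% and 48% in cKO. When the reads of gene and copies were added, the ratio of the highest to the lowest library fell from 14.7 to 1.53 in WT and from 24.3 to 1.13 in cKO, and the log2 fold change of the sum was 0.25.

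Rpl26 (chr11:68792392-68795360, plus strand), whose protein is known to bind p53 mRNA, was likewise low where a copy on another chromosome was high. It stood at 676, 266 and 400.0 FPKM in WT and 635, 802 and 762 FPKM in cKO, low in WT replicates 2 and 3. The transcribed pseudogene Gm15772 (chr5:3286390-3286928) stood at 35.9, 305 and 511 FPKM in WT and 34.5, 44.4 and 44 FPKM in cKO, high in just those 2 WT libraries. For Rpl26 the log2 fold change was 0.81, with an SE of 0.32 and a limma adjusted p = 0.771, and for the summed reads it was 0.10. The coding sequences in GENCODE M21 (GRCm38) are alike at 436 of 438 bases, and the stretch around the first difference, coding bases 147 to 206, shows how little separates the pair. Capitals mark the difference.

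Rpl26: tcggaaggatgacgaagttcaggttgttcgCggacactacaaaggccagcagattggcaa

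Gm15772: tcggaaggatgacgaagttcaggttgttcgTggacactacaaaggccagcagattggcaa

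Rpl34, a large subunit protein (chr3:130520476-130524047, minus strand), had the lowest log2 fold change of the family. It stood at 197, 150.3 and 217 FPKM in WT and 94.9, 99.1 and 203 FPKM in cKO, low in cKO replicates 1 and 2 (log2 fold change -0.58, SE 0.302, limma adjusted p = 0.798). Its copy Rpl34-ps1 (chr6:71101573-71101985, annotated as protein coding) stood at 19.7, 19.7 and 28.2 FPKM in WT and 349.9, 340.3 and 40.2 FPKM in cKO, high in the same pair of cKO libraries. With the reads added, the ratio within cKO fell from 2.13 to 1.03 and the log2 fold change turned to 0.15. Gene and copy are alike at 352 of 354 coding bases, with the first difference, in capitals, in coding bases 102 to 161.

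Rpl34: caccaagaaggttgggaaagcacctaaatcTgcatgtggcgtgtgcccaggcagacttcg

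Rpl34-ps1: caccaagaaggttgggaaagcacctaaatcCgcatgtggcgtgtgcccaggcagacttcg

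Rps27 (chr3:90119974-90120955, minus strand), a zinc-finger protein of the small subunit, had the smallest p of the family. It stood at 81.9, 87.1 and 304 FPKM in WT and 265, 339 and 475 FPKM in cKO, where only WT replicate 3 reached into the cKO range. The WT mean was 158 ± 127 FPKM and the cKO mean 359.6 ± 107 FPKM (SD, n = 3 each), with a log2 fold change of 1.42, an SE of 0.506 and a limma adjusted p = 0.768. It ran from 1.10 without WT replicate 1 to 2.04 without WT replicate 3. Rps27rt (chr9:114811434-114811807), whose coding sequence is the same as that of Rps27 at all 255 bases, stood at 424, 258 and 217 FPKM in WT and 122, 249 and 124 FPKM in cKO. Its log2 fold change was -0.88 (limma adjusted p = 0.771). The sum of both and the minor copies had a log2 fold change of 0.41.

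Rpl30, Rps2 and Rpl28 also stood beside copies with high values. Rpl30, known to bind its own pre-mRNA in yeast, stood at 164, 232 and 308 FPKM in WT and 157, 317 and 183 FPKM in cKO. Its copy Gm12191 on chromosome 11, alike at 347 of 348 coding bases, stood at 118, 12.6 and 18.5 FPKM in WT and 133, 9.34 and 117 FPKM in cKO, high in the 3 libraries in which Rpl30 was lowest. Rps2, at the mRNA entry of the small subunit, stood at 615, 414 and 547 FPKM in WT and 598, 224 and 580.4 FPKM in cKO. The drop in cKO replicate 2 fell in the library where Rps2-ps13 on chromosome X reached 284 FPKM, against 28.6 to 55 FPKM in the other 5, and with copies added the log2 fold change moved from -0.28 to 0.01. Rpl28, a large subunit protein, held only 5 to 16 reads per library, at 0.546 to 0.776 FPKM in WT and 0.96 to 1.68 FPKM in cKO, without overlap at these few reads, and was not tested. Its copy Rpl28-ps1 on chromosome 1, the same at all 414 coding bases, stood at 49.4, 57.7 and 59.2 FPKM in WT and 61.4, 86.5 and 46.8 FPKM in cKO, and copies held 98.6% of the family's reads.

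**Figure D4:**
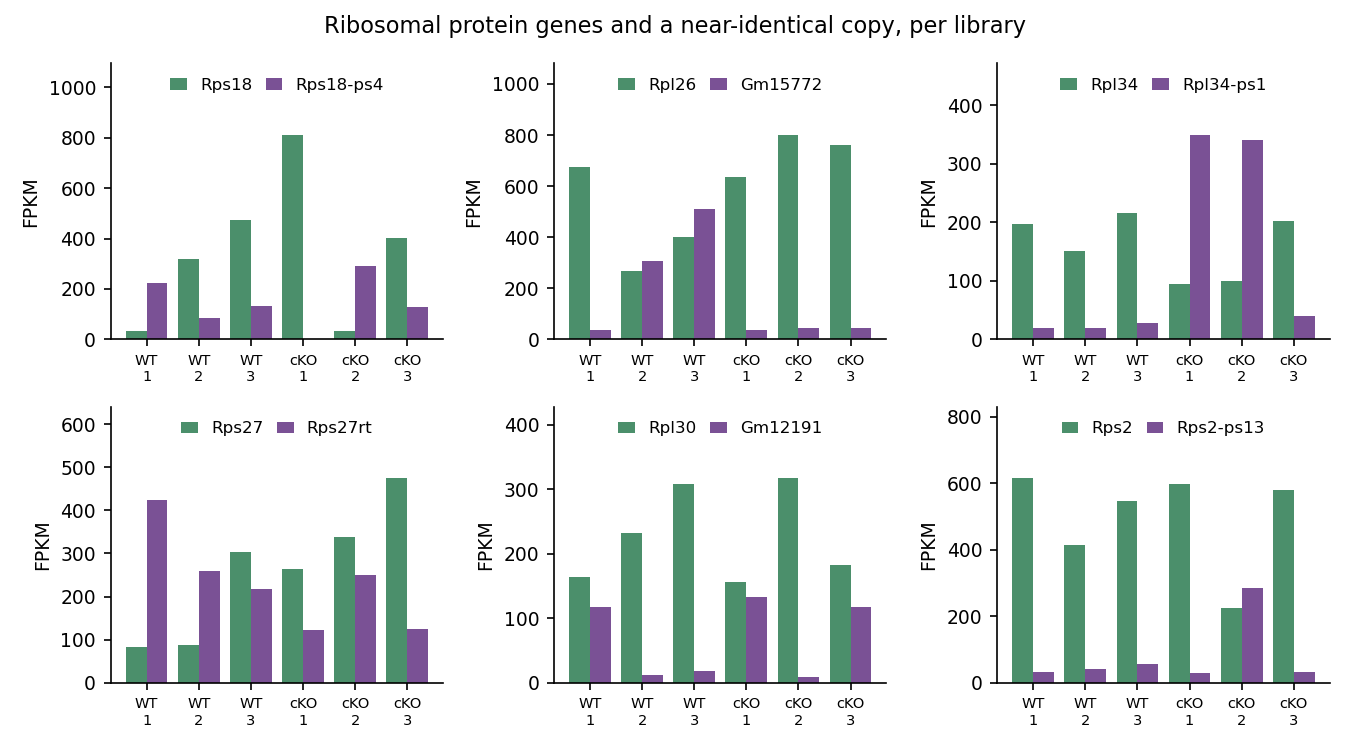
FPKM per library (linear axes from 0) of 6 ribosomal protein genes in green beside a copy in purple. The sequence of Rps18-ps4 was not available, so its likeness to Rps18 was not measured. Rps2-ps13 was alike to Rps2 at 875 of 909 coding bases. The copy was high where the gene was low for Rps18 in WT 1 and cKO 2, Rpl26 in WT 2 and WT 3, Rpl34 in cKO 1 and cKO 2 and Rps2 in cKO 2. Rps27 and Rps27rt were less regular, with 339 and 249 FPKM in cKO 2.

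In 4 other members with a wide spread, Rps27a, Rpl35a, Rpl29 and Rpl21, the within-group ratio was still at least 2 in a group with copies added. Rps27a, which is made as a fusion of ubiquitin with a small subunit protein (chr11:29495842-29498040, minus strand), stood at 308, 100.4 and 531 FPKM in WT and 447, 167 and 151 FPKM in cKO. Copies held 2.9% of its family's reads, and the ratio of highest to lowest library moved only from 5.29 to 4.99 in WT and from 2.96 to 2.71 in cKO. Rpl35a, mutated in some families with Diamond-Blackfan anaemia, stood at 149, 6.9 and 11.5 FPKM in WT and 73.8, 104 and 117 FPKM in cKO. Its log2 fold change was 1.99 (SE 1.01, limma adjusted p = 0.795), 3.30 without WT replicate 1 and 1.17 without WT replicate 2. Its copy Gm10243, alike at 332 of 333 coding bases, stood at 4.87, 23 and 29.1 FPKM in WT and 25.5, 21.5 and 11.4 FPKM in cKO, and adding copies brought the ratio within WT from 21.6 to 4.18 and the log2 fold change, on the scale of scaled reads, from 2.08 to 0.84.

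Rpl29, a heparin-binding protein of the large subunit, stood at 153, 60.2 and 79.9 FPKM in WT and 74.2, 188 and 83.3 FPKM in cKO. Its copy Gm6344 moved with it, at 122, 51.6 and 74.2 FPKM in WT and 63.7, 198 and 92.5 FPKM in cKO. The low copy Gm10709 was also highest in WT replicate 1 and cKO replicate 2 (3.37 and 6.68 FPKM). The copies Gm13841 and Gm8210 were instead lowest of their group in those libraries. Gm13841 stood at 27.4, 45.9 and 62.9 FPKM in WT and 69.9, 42.8 and 53.4 FPKM in cKO. Rpl21, another large subunit protein, stood at 36.5, 6.88 and 18 FPKM in WT and 40.5, 57.8 and 22.7 FPKM in cKO. In FPKM it lay below its copy Rpl21-ps15 on chromosome X in every library (75.3 to 149 FPKM in WT, 132 to 147 FPKM in cKO). FPKM divides by deposited lengths of 1856 bases for the gene and 555 for the copy. In reads, all copies together held 60.7%, 82.8% and 69.3% of the family in WT and 55.7%, 49% and 70.8% in cKO. Both gene and copy were lowest in WT replicate 2. Of the remaining pair of wide members, Rpl7a stood at 67.7, 75.1 and 137 FPKM in WT and 106, 98.7 and 74.4 FPKM in cKO, and copies held 39.4% of its family's reads. Rpl41, the shortest ribosomal protein, stood at 739.7, 345 and 686 FPKM in WT and 614, 710.2 and 506 FPKM in cKO, and was not matched to copies because the table gives it no protein entry name.

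Over the whole family, 1270 rows were counted as copies by the protein name in their description. Of these, 666 held at least 1 read, and 164 had a mean of at least 1 FPKM. The match was by name alone and took in rows such as Zfp933 and the microRNA Mir682. Together the 1270 rows held 9.43% to 11.6% of the family's reads per library. Their share had a median of 5.99% over 78 protein families. It was over 50% in 4 of them, those of Rps18, Rpl17, Rpl21 and Rpl28. Among 76 families with a tested member, 11 had a within-group ratio of at least 2 for the member itself and 4 with copies added (Rpl21, Rpl29, Rpl35a and Rps27a). Of these 4, only Rpl29 was also searched for rows without a symbol by full protein name. Adding reads that are steady across libraries also lowers such a ratio, so a fall alone does not show that copies moved opposite to the gene. In the Rpl7a family, copies stood at 1236, 1124 and 1218 scaled reads in WT, and the ratio within WT fell from 2.02 to 1.55. The median log2 fold change was 0.16 before and 0.16 after adding copies, with 72 and 75 of 76 families above 0, and the largest absolute value went from 2.08 to 0.84. How the counting divided reads between near-identical rows is not stated in the sources used here. The values of single members with such copies are therefore uncertain. The part of the copies in the family's median log2 fold change was not tested.

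**Figure D5:**
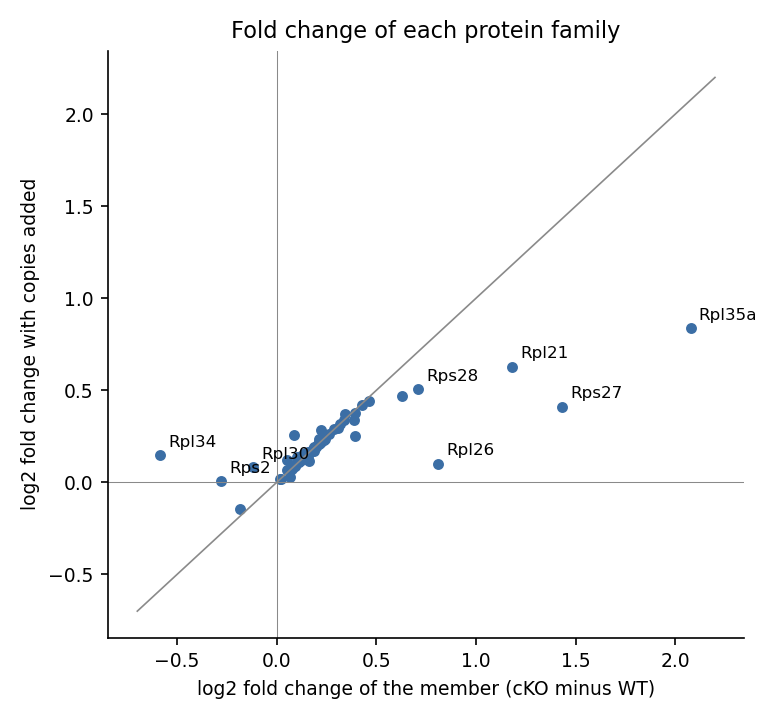
Log2 fold change (cKO minus WT) of the ribosomal protein gene (horizontal) and of the gene with its copies added (vertical) for 76 protein families, both on the log2 scale of scaled reads, with families named where the values differ by at least 0.2. The wide values of Rpl35a, Rps27, Rpl26 and Rpl34 move towards the other families, from 2.08 to 0.84 for Rpl35a.

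Several paralogs were far below their parent in level, while Rpl36al and Rpl22l1 were not. Rpl10l, known to take over from the X-linked Rpl10 in male meiosis, stood at 8.12, 4.73 and 5.29 FPKM in WT and 8.84, 6.05 and 10 FPKM in cKO, with overlapping groups (log2 fold change 0.41, SE 0.228, limma adjusted p = 0.806). Rpl10, which joins the large subunit late and is needed for subunit joining, stood at 799 to 952 FPKM in WT and 863 to 994 FPKM in cKO. Their coding sequences are alike at 547 of 645 bases (84.8%), and the first 60 coding bases, with the 9 differences in capitals, contrast with the copies above.

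Rpl10: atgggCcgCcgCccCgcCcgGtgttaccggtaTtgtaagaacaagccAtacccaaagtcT

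Rpl10l: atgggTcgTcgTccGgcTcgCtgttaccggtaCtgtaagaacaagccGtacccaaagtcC

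Rpl39l, a testis-enriched paralog alike to Rpl39 at 85.3% of coding bases, stood at 6.48, 5.76 and 3.96 FPKM in WT and 7.99, 7.32 and 5.51 FPKM in cKO, beside 225 to 441 FPKM in WT and 326 to 468 FPKM in cKO for Rpl39. Rps27l, known as a p53 target and 76.1% alike to Rps27, stood at 14.5, 11.1 and 16.8 FPKM in WT and 13.7, 19.3 and 16.1 FPKM in cKO. Rpl36al stood at 117, 93 and 125 FPKM in WT and 129, 122 and 112 FPKM in cKO, beside 182 to 258 FPKM in WT and 231 to 338 FPKM in cKO for Rpl36a, which is 87.9% alike. Rpl3l, the paralog of heart and skeletal muscle, was at or below 0.34 FPKM in every library, with 0 to 12 reads, against 443 to 613 FPKM in WT and 495 to 559 FPKM in cKO for Rpl3. Rpl32l held 0 to 3 reads per library. Rps4l, a transcribed pseudogene in the table and so outside the rule, stood at 76, 56.6 and 61.7 FPKM in WT and 91.3, 70.7 and 81.3 FPKM in cKO, beside 593 to 746 FPKM in WT and 648 to 727 FPKM in cKO for Rps4x. Rpl22l1, the paralog of Rpl22 and also outside the rule, stood at 118, 97.7 and 117 FPKM in WT and 90.7, 135 and 103 FPKM in cKO, beside 88.8 to 109.7 FPKM in WT and 107 to 110.4 FPKM in cKO for Rpl22. In each of these paralogs the groups overlapped.

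Some ribosomal proteins have symbols outside the rule. Fau, which encodes a ubiquitin-like protein fused to a small subunit protein, stood at 321, 192 and 279 FPKM in WT and 333, 338 and 292 FPKM in cKO, a log2 fold change of 0.31 with an SE of 0.196 (limma adjusted p = 0.820). WT replicate 2 was its lowest library and cKO replicate 2 its highest, and the groups overlapped. The mitochondrial ribosomal proteins, which build the separate ribosome of the mitochondrion, had 68 of 78 genes above 0 (87.2%), against 50.0% of all genes tested. Their median was 0.10, and 0 passed the limma threshold, against 0.00680% higher and 0.0136% lower among all genes. The cKO libraries all lay above the WT libraries in 8 of the 78, against 6.37% of all genes. They all lay below in 0, against 5.89%. The median deviation of these genes was -0.18 in WT replicate 2 and 0.18 in cKO replicate 2. The smallest p among them was that of Mrpl44, a large subunit protein of the mitochondrial ribosome, at 15.5, 14.7 and 16.0 FPKM in WT and 19.8, 19.8 and 19.1 FPKM in cKO, a log2 fold change of 0.33 with an SE of 0.079 (limma adjusted p = 0.713), with no overlap between the groups.

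Genes that share the TOP tract or act on ribosome assembly had medians closer to 0. Of 19 other TOP mRNA genes of translation, such as elongation and initiation factors, 13 were above 0 with a median of 0.06, and WT replicate 2 was the lowest WT library in 9. Npm1, a nucleolar chaperone, had the smallest p there, at 117, 113 and 132 FPKM in WT and 128, 153 and 138 FPKM in cKO, at a log2 fold change of 0.22 with an SE of 0.108 (limma adjusted p = 0.791). Of 41 genes of ribosome biogenesis and RNA polymerase I, 29 were above 0 with a median of 0.04, with median deviations of -0.02 in WT replicate 2 and 0.06 in cKO replicate 2. Of 14 genes that regulate TOP mRNAs, among them Mtor and Larp1, 5 were above 0 with a median of -0.07. By limma, 0 genes of these 3 lists passed the threshold, against 0.00680% higher and 0.0136% lower among all genes tested. At an unadjusted p under 0.05, limma called 0 genes of the lists, against 3.64% higher and 2.70% lower among all genes. By limma-voom 0 were under that unadjusted p, against 6.16% of all genes in either direction. These lists were not matched to the ribosomal protein genes in gene length. Among other coding genes of at least 10 FPKM, the median log2 fold change was 0.09 from 1000 to 2000 bases and 0.03 from 2000 to 4000 bases. The difference between these lists and the ribosomal protein genes was not tested.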

How the data were processed

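RNA of whole ovaries was sequenced in 6 libraries, and the labels gave each library's group and replicate number. The authors deposited FPKM per gene in 1 table of all libraries, with gene lengths, whose product was a whole multiple of 1 step per library for 100% of values (tolerance 0.01), which gave the recovered reads. HISAT2 2.0.5 and the builds mm10 and GRCm39 are named in the submitters' processing notes. The counter, annotation, strandedness and treatment of multiply aligned reads are not named in the sources used here.

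Genes averaging at least 1 FPKM over all libraries were compared on log2(FPKM + 1), a scale that understates changes of low genes, by limma 3.58.1 in R 4.3.3 (trended prior, two-sided, Benjamini-Hochberg over 14714 genes, threshold 0.05). Run on the recovered reads, limma-voom called 0 genes. Copies were rows that share a member's protein entry name in the table's description, and their reads were summed as FPKM times length. For Rps18, Rpsa, Rpl17, Rps6, Rpl23a, Rpl29, Rpl3 and Rps19 only, rows without a symbol were also matched by full protein name. The search for copies was thus not equal between families. Libraries differed beyond sampling noise in every pair (chi-square per gene of 28.9 to 93.7 over 6680 genes).

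The members, lists and comparisons were chosen with earlier results of these data known. Genes named were the 10 highest in WT (a few items are not reported here), members with a within-group ratio of at least 2, the 5 smallest p among members higher in cKO and the 4 lower members, paralogs with their parents, members below the filter, members known for other roles, and genes with the smallest p of each list. Rpl22, Rpl22l1, Rpl17 and the copies were added after their values were seen. Alternatives were other pseudocounts, filters, scalings, priors, library weights, a replicate block, other member sets and leaving out libraries.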

Additional observations from a re-analysis of the deposited data

How the results depend on the processing

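By limma or limma-voom, 0 ribosomal protein genes passed the threshold in either direction under every alternative run, including the member sets without Rps18, without wide members, and in a narrower reading of the rule. Their median log2 fold change lay between 0.03 and 0.27 when single libraries were left out, the lowest without WT replicate 2, and was 0.05 after quantile normalization, with 56 of 80 members above 0. With both second libraries left out (chosen after seeing the data), 33 members were above 0. Adding the reads of copies left 4 protein families, from 11, with a within-group ratio of at least 2. Such adding lowers the ratio also where the copies are steady.

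Over all genes tested, 1 gene was higher and 2 were lower. The count higher was 0 with a pseudocount of 0.1 or 0.5, quantile normalization, a filter at 5 FPKM, no filter, protein-coding genes only or limma-voom, and 3 with library weights. The count lower was 0 with no filter or limma-voom and 1 with protein-coding genes only or both second libraries left out. Each ran from 0 to 1 when single libraries were left out. The cause was not tested.

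The replicate block left 0 genes higher and 0 lower. Deviations from the group mean correlated at 0.18, -0.08 and -0.06 between same-numbered libraries, and at -0.23 to 0.23 between differently numbered ones. The labels do not say what the replicate numbers mean, so whether they pair the samples is not known. The median log2 fold change of the members with the block was 0.16. The planned count models on recovered reads were not run, since the deposited values are FPKM.

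Of 37 named members, 14 kept the sign of their log2 fold change under all 22 alternative fits, and none of the 37 passed the threshold in any (smallest limma adjusted p = 0.0734).
Values changed sign as follows. With both second libraries left out, the log2 fold change was -0.063 for Rplp1, -0.087 for Rpl23a, -0.069 for Rpl13, -0.072 for Rps26, -0.031 for Rpl7, -0.018 for Rplp0, -0.35 for Rpl41, 0.023 for Rps2, -0.48 for Rpl29, -0.12 for Rpl7a, -0.011 for Rpl36al, -0.066 for Rps27l, -0.029 for Rpl36a, -0.010 for Rps4x, -0.019 for Rplp2 and -0.16 for Rpl11. After quantile normalization it was -0.010 for Rps26, -0.039 for Rpl7, -0.016 for Rpl10, -0.048 for Rpl41, -0.012 for Rpl7a, -0.080 for Rpl3, -0.10 for Rps4x, -0.0046 for Rpsa and -0.027 for Rpl5. Scaling to a common FPKM total gave -0.011 for Rpl7a and -0.015 for Rps4x, and a total without the ribosomal protein genes gave -0.0030 for Rps4x. Library weights gave 0.057 for Rps2, 0.41 for Rps27a and -0.17 for Rpl29. Leaving out single libraries gave -0.0036 to 0.26 for Rpl23a, -0.24 to 0.31 for Rpl41, -0.52 to 0.18 for Rps2, -0.85 to 0.35 for Rps27a, -0.79 to 1.74 for Rps18, -0.42 to 0.10 for Rpl30, -0.20 to 0.59 for Rpl29, -0.14 to 0.36 for Rpl7a, -0.0046 to 0.21 for Rpl36al, -0.018 to 0.22 for Rpl3, -0.024 to 0.14 for Rps4x and -0.041 to 0.23 for Rpl11. Depth limits Rpl28, Rpl32l and Rpl3l, which held at most 16 reads in a library.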
